A study of Homo sapiens with 12 samples.

Results

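Glycolysis turns glucose into pyruvate and lactate in the cytosol, and many of its genes belong to the set that cells switch on when oxygen is scarce. That response runs through HIF, a transcription factor made of an oxygen-sensitive subunit (HIF1A or EPAS1) and a constant partner (ARNT). With oxygen present, the prolyl hydroxylases EGLN1 to EGLN3 mark the sensitive subunit for breakdown, so HIF is controlled mainly at the level of its protein, which RNA-sequencing does not measure. Among the genes HIF is known to activate are glucose and lactate transporters, glycolytic enzymes, enzymes that modify collagen, inducers of mitophagy and, as a feedback, some of the EGLN enzymes.

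Here 38 genes of glycolysis and of this response were read by their symbols from the 24331 features of a deposited expression table, and all 38 were found. They were 3 HIF subunits, 4 glucose and lactate transporters, 17 glycolytic enzymes, 3 regulators of glycolytic flux and 11 other targets of HIF. The cells were MDA-MB-231, a line from a metastatic, hormone receptor-negative human breast cancer, either unmodified (WT) or with binding sites for NFAT and NF-κB in the core-regulatory element (CRE) of the ETS1 promoter removed with CRISPR/Cas9 (ΔCRE, labelled KO). Each genotype was unstimulated (0 h) or stimulated with PMA/Ionomycin for 6 h or 24 h, with 2 libraries per group and 12 in all, given as biological replicates by the study's methods. Whether these were separate cultures is not given in the sources used here, so p-values measure the spread between these libraries. PMA is a phorbol ester that activates protein kinase C, and Ionomycin lets calcium into the cell. How many clones the ΔCRE libraries came from is not given in the sources used here, so the deletion and a property of a clone cannot be told apart. Unstimulated cells at 6 h and 24 h were not analysed here, so stimulation and time in culture cannot be told apart either. Nor can fewer cells with a transcript be told apart from less transcript per cell.

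Values are FPKM, fragments per kilobase of transcript, scaled to the number of mapped fragments, so levels of different genes are per length. The number of fragments behind each value is unknown. The library labelled ΔCRE 0 h replicate 1 stood apart from the other 11. EPCAM was at 1139 FPKM there and between 2.02 and 3.38 FPKM in the others, the epithelial markers CDX2 and VIL1 were above 0 in that library alone, and the sum of FPKM was 1423335 against 566255 to 651080. Over 11256 features its correlation with replicate 2 was 0.867, against 0.978 to 0.984 for the other 5 pairs of libraries, across genes, which are not independent replicates. It was left out of the tests and is shown apart, so ΔCRE cells at 0 h have 1 library, assumed to vary like the other groups. Of 5 listed markers of luminal breast cells, the hormone receptors ESR1 and PGR were at or near 0 in the other 11 libraries. The remaining 3 (ERBB2, GATA3 and FOXA1) had a mean of at least 1 FPKM there. In the same 11 libraries all 6 markers of the line on the list (VIM, CD44, AXL, CAV1, MSN and ANXA1) lay above 40 FPKM. These markers moved too: at 24 h in WT cells CD44 and MSN were called higher than at 0 h and CAV1, AXL and ANXA1 lower, with log2 fold changes of -1.92, -1.22 and -0.51, and their part in the results was not tested. ETS1 was at 24.0 and 23.7 FPKM at 0 h, 139 and 145 FPKM at 6 h and 36.2 and 39.7 FPKM at 24 h in WT cells. In ΔCRE cells it was at 16.5 FPKM at 0 h, 62.8 and 62.2 FPKM at 6 h and 29.3 and 30.7 FPKM at 24 h, and at 5.08 FPKM in the library shown apart.

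HIF binds a short core in the promoters and enhancers of its targets, either ACGTG or GCGTG. Promoter windows from RefSeq (GRCh38.p14), from 250 bases before to 50 bases after a gene's start, were found for 34 of the 38 genes. Both forms were searched on both strands, and the palindrome CACGTG holds ACGTG on each strand and counts as 2 overlapping matches. Of all 35116 windows of the table, 21.4% held ACGTG, 36.5% held GCGTG and 48.4% held either. The stretches below are from some of the genes that were 2-fold or more higher at 24 h (ALDOC, ENO2, BNIP3, ANKRD37 and PFKFB4). Shown beside them are a pair of further HIF targets that hold ACGTG (P4HA1 and CA9) and ENO1, the abundant enolase, for comparison with ENO2. Each stretch is the 250 bases before the start, read 5′ to 3′ on the strand of the gene, with ACGTG of either strand in capitals. They lie at chr17:28576896-28577145 (minus strand) for ALDOC, chr12:6914330-6914579 (plus strand) for ENO2, chr10:131981924-131982173 (minus strand) for BNIP3, chr4:185396591-185396840 (plus strand) for ANKRD37, chr10:73096867-73097116 (minus strand) for P4HA1, chr9:35673678-35673927 (plus strand) for CA9, chr3:48556804-48557053 (minus strand) for PFKFB4 and chr1:8878687-8878936 (minus strand) for ENO1.
ALDOC: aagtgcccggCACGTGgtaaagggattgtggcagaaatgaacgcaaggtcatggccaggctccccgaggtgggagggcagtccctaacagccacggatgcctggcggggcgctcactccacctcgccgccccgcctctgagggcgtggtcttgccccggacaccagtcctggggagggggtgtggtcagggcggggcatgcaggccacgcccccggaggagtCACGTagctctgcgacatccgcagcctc
ENO2: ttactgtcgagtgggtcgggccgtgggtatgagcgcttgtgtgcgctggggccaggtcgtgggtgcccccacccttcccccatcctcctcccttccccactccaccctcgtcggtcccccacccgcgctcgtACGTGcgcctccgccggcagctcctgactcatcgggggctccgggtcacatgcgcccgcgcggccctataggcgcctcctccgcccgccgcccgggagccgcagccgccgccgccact
BNIP3: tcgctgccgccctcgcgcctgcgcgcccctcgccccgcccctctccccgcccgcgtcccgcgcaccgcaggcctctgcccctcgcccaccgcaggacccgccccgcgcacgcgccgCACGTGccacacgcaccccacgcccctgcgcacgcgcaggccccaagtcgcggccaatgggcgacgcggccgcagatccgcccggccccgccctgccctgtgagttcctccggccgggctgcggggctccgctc
ANKRD37: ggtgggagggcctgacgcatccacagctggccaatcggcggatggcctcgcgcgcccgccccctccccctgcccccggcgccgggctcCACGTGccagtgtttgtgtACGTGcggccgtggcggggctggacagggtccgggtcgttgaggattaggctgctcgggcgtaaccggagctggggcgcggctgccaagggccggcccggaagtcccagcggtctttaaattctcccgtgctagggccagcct
P4HA1: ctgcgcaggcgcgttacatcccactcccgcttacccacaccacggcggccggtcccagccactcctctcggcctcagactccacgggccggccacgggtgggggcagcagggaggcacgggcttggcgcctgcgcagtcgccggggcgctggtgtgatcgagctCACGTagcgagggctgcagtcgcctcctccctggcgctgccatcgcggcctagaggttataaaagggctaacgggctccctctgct
CA9: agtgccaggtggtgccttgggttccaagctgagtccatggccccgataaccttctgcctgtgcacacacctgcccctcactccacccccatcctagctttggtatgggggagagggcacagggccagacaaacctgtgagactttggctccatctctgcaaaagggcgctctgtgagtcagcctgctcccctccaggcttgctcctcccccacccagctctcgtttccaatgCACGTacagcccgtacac
PFKFB4: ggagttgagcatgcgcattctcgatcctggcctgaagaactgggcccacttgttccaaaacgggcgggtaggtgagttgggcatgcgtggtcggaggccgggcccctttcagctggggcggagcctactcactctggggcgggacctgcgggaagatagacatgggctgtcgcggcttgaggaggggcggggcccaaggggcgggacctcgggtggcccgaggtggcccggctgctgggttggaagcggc
ENO1: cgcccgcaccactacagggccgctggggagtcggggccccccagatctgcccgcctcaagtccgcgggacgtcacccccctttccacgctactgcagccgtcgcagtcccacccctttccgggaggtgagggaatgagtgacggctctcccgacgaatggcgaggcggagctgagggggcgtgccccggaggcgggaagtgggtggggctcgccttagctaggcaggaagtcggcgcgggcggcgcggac

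ALDOC, BNIP3 and ANKRD37 each held the palindrome. Counted backwards from the start, with -1 as the last base before it, the first base of ACGTG lay at -118 in ENO2, at -86 in P4HA1 and at -18 in CA9. ANKRD37 and ALDOC each held a further ACGTG apart from it. PFKFB4 and ENO1 held no ACGTG but did hold GCGTG, 1 and 2 times, as did ALDOC (2 times) and BNIP3 (4 times). The stretches shown are not a sample of the HIF targets. Among the other HIF targets with a window that are not shown, ADM, EGLN3, KDM3A and P4HA2 held no ACGTG, and EGLN1 did. HK2, also 2-fold or more higher at 24 h, held ACGTG in each of its windows and is not shown either. A match is a description of the sequence and does not show that HIF binds there, and the absence of a match says only that these letters are not in this window.

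In WT cells 24 h brought more calls than 6 h, most of them higher. Called here means an adjusted p under 0.05 by limma's moderated test on log2(FPKM + 1), adjusted by the Benjamini-Hochberg method over all 11256 features with a mean of at least 1 FPKM. The 1 added to FPKM makes the change of a low gene look smaller than it is. Of the 38 genes, 36 passed that filter, and SLC16A1 and CA9 did not. At 6 h 12 of the 36 were called higher than at 0 h and 6 lower, beside 23.3% and 21.1% of all features tested. At 24 h 21 were called higher than at 0 h and 4 lower, beside 26.5% and 28.2% of all features. Of the 21, 7 were at least 2-fold higher (NDRG1, ALDOC, BNIP3, ENO2, PFKFB4, ANKRD37 and HK2), beside 3.32% of all features. The comparisons of 6 h and 24 h with 0 h share the WT libraries at 0 h.

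With any 1 of the 11 libraries left out in turn, 11 of the 18 calls at 6 h and 19 of the 25 at 24 h were kept in every fit. At 6 h the calls of ANKRD37 (0.38 to 0.55), ENO2 (0.14 to 0.31) and PKM (0.15 to 0.30) were lost without WT 0 h replicate 2 and without either WT 6 h library, that of PFKL (0.24 to 0.50) without WT 0 h replicate 2 or WT 6 h replicate 1, that of PFKM (-0.20 to -0.17) without WT 0 h replicate 1 or either WT 6 h library and that of SLC2A3 (0.20 to 0.27) without WT 0 h replicate 1 or WT 6 h replicate 2. GPI (0.11 to 0.19) lost its call in 9 of the 11 fits. At 24 h the calls of EGLN3 (0.31 to 0.44) and TPI1 (0.14 to 0.35) were lost without WT 0 h replicate 2 or either WT 24 h library, those of ALDOA (0.19 to 0.34) and GPI (0.15 to 0.22) without WT 0 h replicate 2 or WT 24 h replicate 1 and that of LDHB (-0.25 to -0.18) without WT 0 h replicate 1 or either WT 24 h library. PFKL (0.13 to 0.39) lost its call in 6 of the 11 fits. The highest adjusted p of these genes was 0.239. With the library labelled ΔCRE 0 h replicate 1 kept in the model, 3 genes were called at 6 h (ADM, EPAS1 and HK2), and 11 at 24 h (ADM, ALDOC, ANKRD37, BNIP3, ENO2, EPAS1, HK2, KDM3A, PFKFB4, PGK1 and SLC2A3). The share of all features called in that fit is not set beside these counts. Rescaling each library to the same sum moved the median of all features from -0.0014 to -0.12 at 6 h and the share of higher among called features from 52.5% to 35.0%. Of the 36 genes 7 were then called higher at 6 h and 9 lower, against 11 and 8 with quantile normalization, so the balance of higher and lower calls at 6 h turned with the scaling. At 24 h it was 21 higher and 4 lower after rescaling and 22 and 4 with quantile normalization.

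**Figure D1:**
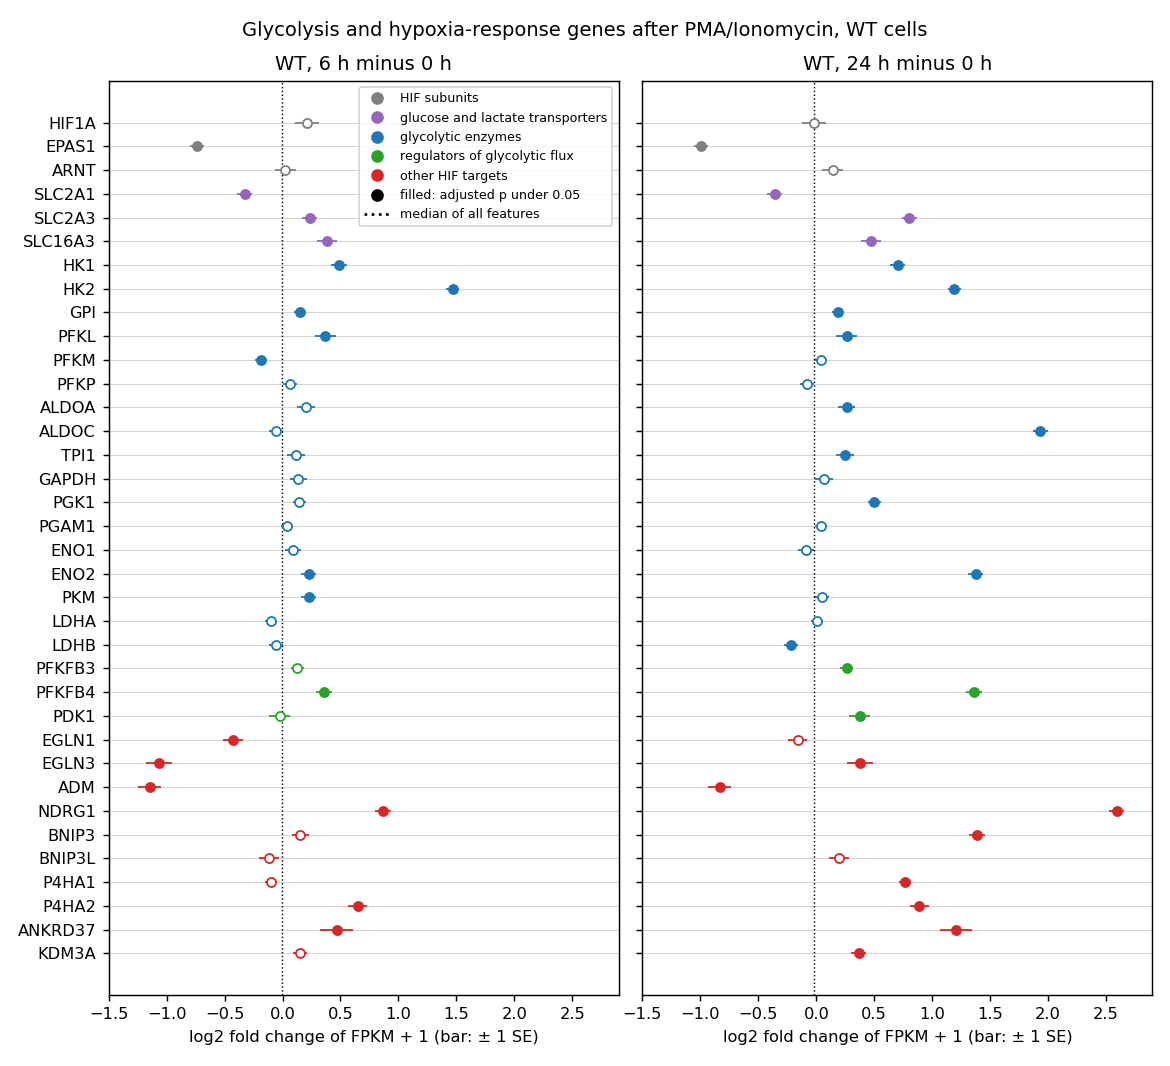
Log2 fold change of FPKM + 1 in WT cells at 6 h (left) and 24 h (right) against 0 h for the 36 genes tested, with bars of ± 1 SE and 2 libraries per group. Filled points have an adjusted p under 0.05, and the dotted line is the median of all features. NDRG1 and ALDOC reach 2.59 and 1.93 at 24 h, while most abundant enzymes stay close to 0.

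None of the 3 HIF subunits was called higher, and EPAS1 fell. HIF1A (chr14:62162119-62215807 in hg19, the extent of the whole gene as the deposited table gives it, as for the genes that follow) was at 83.7 and 94.6 FPKM at 0 h, 97.0 and 109 FPKM at 6 h and 82.4 and 93.8 FPKM at 24 h, a log2 fold change of 0.21 (SE 0.104, adjusted p = 0.136) at 6 h and -0.02 (SE 0.104, adjusted p = 0.902) at 24 h. The libraries at 24 h overlapped those at 0 h. EPAS1, the other oxygen-sensitive subunit (chr2:46524541-46613842), was at 19.2 and 19.1 FPKM at 0 h, 11.4 and 10.7 FPKM at 6 h and 9.18 and 8.99 FPKM at 24 h. It fell by 0.74 (SE 0.0588, adjusted p = 2.71e-05) on the log2 scale at 6 h and by 0.997 (SE 0.0588, adjusted p = 4.16e-06) at 24 h, with no overlap between the times. ARNT, the shared partner, lay between 5.92 and 7.20 FPKM in the 6 WT libraries and was called in neither comparison.

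Glucose enters through SLC2A1 and SLC2A3 (GLUT1 and GLUT3), and lactate leaves through SLC16A3 (MCT4) and SLC16A1 (MCT1). SLC2A1 was at 86.0 and 77.3 FPKM at 0 h, 64.4 and 65.1 FPKM at 6 h and 64.0 and 62.5 FPKM at 24 h, and fell by 0.36 (SE 0.0617, adjusted p = 0.00138) on the log2 scale at 24 h. SLC2A3 moved the other way, from 8.99 and 9.42 FPKM at 0 h through 10.7 and 11.3 FPKM at 6 h to 17.3 and 16.3 FPKM at 24 h, a log2 fold change of 0.80 (SE 0.0636, adjusted p = 2.16e-05). At 6 h it was called (log2 fold change 0.23), and no longer after rescaling (0.127, adjusted p = 0.166). SLC2A3 has a near-identical copy (SLC2A14) with which it can share reads. SLC16A3 was at 191 and 159.6 FPKM at 0 h, 233 and 224 FPKM at 6 h and 247 and 237 FPKM at 24 h, with a log2 fold change of 0.39 (SE 0.0862, adjusted p = 0.00694) at 6 h and 0.47 (SE 0.0862, adjusted p = 0.00203) at 24 h. SLC16A1 did not reach 0.3 FPKM in any of the 11 libraries, so nearly all of the lactate transporter signal was SLC16A3.

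The glycolytic enzymes are among the most abundant transcripts of these cells, and the 17 genes made up between 2.14% and 2.35% of the sum of FPKM in the 11 libraries. At 24 h 9 of the 17 were called higher than at 0 h and 1 lower, beside 26.5% and 28.2% of all features. Their median log2 fold change was 0.19, beside -0.02 over all features. The large changes were in HK2, HK1 and PGK1 and in the scarce isozymes ALDOC and ENO2. At 6 h 6 were called higher and 1 lower, beside 23.3% and 21.1% of all features. The counts were 5 and 3 with quantile normalization and 3 and 3 after rescaling. The median at 6 h was 0.14, and it fell to -0.01 with quantile normalization and to 0.02 after rescaling to the same sum. GAPDH, PGK1, LDHA, ENO1, TPI1 and PGAM1 have processed pseudogenes of near-identical sequence, so their values depend on how shared reads were assigned.

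Hexokinase, the entry step, rose early. HK2 (chr2:75059782-75120481) was at 8.43 and 8.54 FPKM at 0 h, 25.3 and 25.2 FPKM at 6 h and 20.5 and 20.8 FPKM at 24 h. Its log2 fold change was 1.47 (SE 0.0564, adjusted p = 3.5e-07) at 6 h and 1.19 (SE 0.0564, adjusted p = 1.27e-06) at 24 h, and it was the only enzyme at least 2-fold higher at 6 h. HK1, the more abundant hexokinase, rose over both times, from 68.7 and 60.7 FPKM through 91.6 and 90.3 FPKM to 108 and 103 FPKM, a log2 fold change of 0.70 (SE 0.0660, adjusted p = 5.18e-05) at 24 h. The 3 phosphofructokinases, which catalyse the committed step, had small changes. PFKL was at 36.6 and 30.4 FPKM at 0 h and 41.6 and 38.8 FPKM at 24 h, with a log2 fold change of 0.26 (SE 0.0918, adjusted p = 0.0387). PFKM was called lower at 6 h (log2 fold change -0.19) and not at 24 h (log2 fold change 0.04), and PFKP, at 138 to 158 FPKM, in neither comparison.

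Aldolase and enolase each have an abundant and a scarce form, and the scarce forms were the ones with large changes. ALDOC (chr17:26900133-26903951) was at 23.6 and 25.1 FPKM at 0 h, 22.9 and 23.9 FPKM at 6 h and 94.1 and 97.5 FPKM at 24 h, a log2 fold change of -0.05 (SE 0.0617, adjusted p = 0.502) at 6 h and 1.93 (SE 0.0617, adjusted p = 1.5e-07) at 24 h. The values at 6 h lay beside those at 0 h, and both libraries at 24 h lay far above. ALDOA, the main aldolase of these cells, was at 731 and 659.5 FPKM at 0 h and 864 and 801 FPKM at 24 h, a log2 fold change of 0.26 (SE 0.0754, adjusted p = 0.018). ENO2 (chr12:7023614-7032859) was at 30.7 and 27.3 FPKM at 0 h, 34.1 and 33.9 FPKM at 6 h and 76.2 and 76.96 FPKM at 24 h, with log2 fold changes of 0.23 (SE 0.0630, adjusted p = 0.0191) and 1.37 (SE 0.0630, adjusted p = 1.07e-06). The call at 6 h was lost with quantile normalization, at 0.135 (adjusted p = 0.110), and after rescaling, at 0.108 (adjusted p = 0.117). Its abundant partner ENO1 was at 1816 and 1613 FPKM at 0 h and 1633 and 1581 FPKM at 24 h, and was not called at 24 h (log2 fold change -0.09, SE 0.0706, adjusted p = 0.304).

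A share within a pair of genes does not depend on the scaling of a library, because a factor common to the library cancels. ALDOC was 3.13 and 3.66% of the summed FPKM of both aldolases at 0 h, 2.74 and 2.95% at 6 h and 9.82 and 10.8% at 24 h in WT cells. ENO2 was 1.66 and 1.66% of both enolases at 0 h, 1.85 and 1.82% at 6 h and 4.46 and 4.64% at 24 h. ALDOA and ENO1 still held most of the signal at every time. LDHA was 41.4 and 42.4% of LDHA and LDHB together at 0 h, 41.5 and 41.0% at 6 h and 45.5 and 46.1% at 24 h. HK2 differed from these in its time course, with 10.9 and 12.3% of both hexokinases at 0 h, 21.6 and 21.8% at 6 h and 15.9 and 16.7% at 24 h. SLC2A3 went from 9.47 and 10.9% of both glucose transporters at 0 h to 21.3 and 20.7% at 24 h. In ΔCRE cells the shares at 24 h were 10.04 and 10.3% for ALDOC, 4.29 and 4.49% for ENO2, 46.2 and 46.6% for LDHA, 11.9 and 12.6% for HK2 and 23.4 and 24.4% for SLC2A3.

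**Figure D2:**
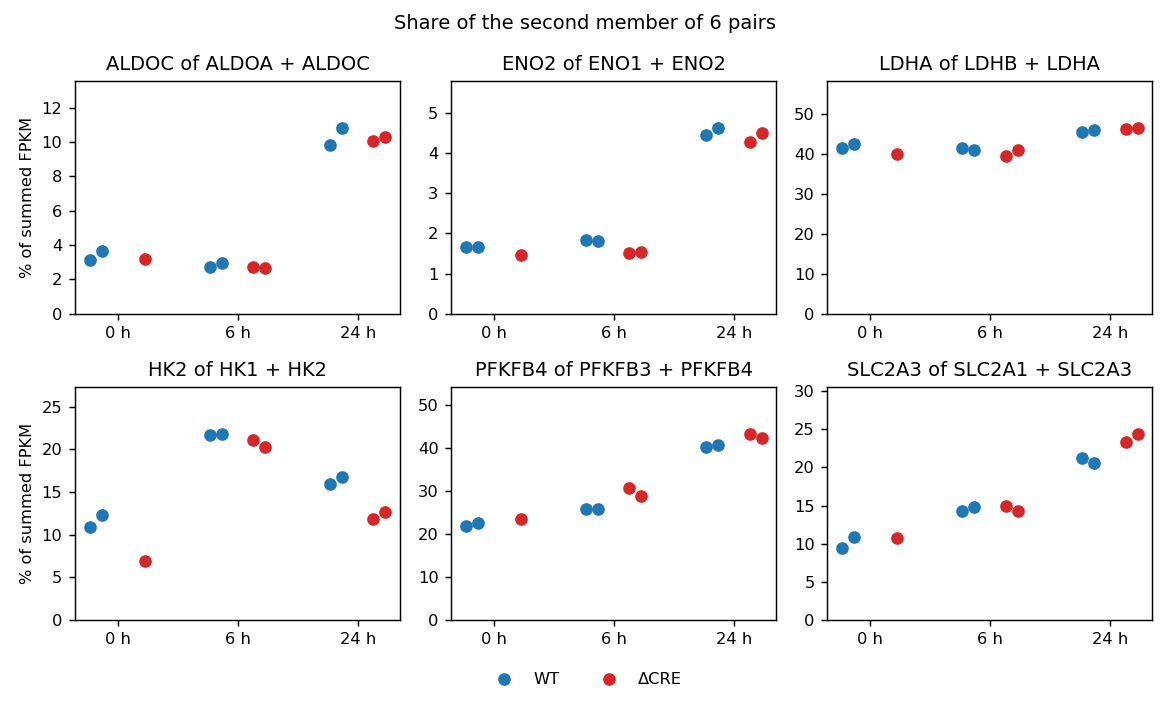
Share of 1 gene in the summed FPKM of a pair (vertical axis, %) at 0, 6 and 24 h (horizontal axis) in WT (blue) and ΔCRE (red) cells, 1 point per library, without the library labelled ΔCRE 0 h replicate 1. The shares of ALDOC, ENO2, PFKFB4 and SLC2A3 are highest at 24 h in both genotypes, and that of HK2 at 6 h.

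Most enzymes of the later steps changed less. PGK1, which makes ATP, was at 301 and 287 FPKM at 0 h, 312 and 339 FPKM at 6 h and 412 and 421 FPKM at 24 h, a log2 fold change of 0.50 (SE 0.0564, adjusted p = 0.000141) at 24 h with no overlap. GAPDH, the most abundant of the 38 genes, was at 5538 and 4958 FPKM at 0 h, 5718 and 5813 FPKM at 6 h and 5587 and 5381 FPKM at 24 h, and was not called in either comparison (log2 fold change 0.07, SE 0.0771, adjusted p = 0.498 at 24 h). PGAM1 and LDHA were not called either, with log2 fold changes of 0.04 and 0.01 at 24 h and SEs of 0.0519 and 0.0499. TPI1 and GPI were called higher at 24 h, at 0.25 and 0.19. PKM was called higher at 6 h (log2 fold change 0.23) and not at 24 h (log2 fold change 0.05), and the call at 6 h was lost after rescaling, at 0.103 (adjusted p = 0.0525), and without a filter (adjusted p = 0.0536). GPI at 6 h fell to 0.043 with quantile normalization (adjusted p = 0.395) and 0.030 after rescaling (adjusted p = 0.541), and lost its call. LDHB, the only enzyme called lower at 24 h, was at 1158 and 1104 FPKM at 0 h and 970.3 and 972 FPKM at 24 h (log2 fold change -0.22, SE 0.0579, adjusted p = 0.012), a call that was lost with quantile normalization, where the value was -0.034.

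Of the regulators, PFKFB3 and PFKFB4 make the activator of phosphofructokinase and PDK1 holds pyruvate back from the mitochondria by inhibiting pyruvate dehydrogenase. PFKFB4 (chr3:48555117-48594227) was at 5.02 and 5.08 FPKM at 0 h, 6.95 and 6.54 FPKM at 6 h and 14.8 and 14.3 FPKM at 24 h, a log2 fold change of 0.36 (SE 0.0677, adjusted p = 0.00316) at 6 h and 1.36 (SE 0.0677, adjusted p = 1.57e-06) at 24 h. PFKFB3 was at 17.8 and 17.5 FPKM at 0 h and 22.0 and 20.8 FPKM at 24 h (log2 fold change 0.26, SE 0.0566, adjusted p = 0.00467), so PFKFB4 went from 21.9 and 22.5% to 40.2 and 40.8% of the summed FPKM of the pair. PDK1 was at 4.58 and 4.84 FPKM at 0 h, 4.41 and 4.82 FPKM at 6 h and 6.37 and 6.44 FPKM at 24 h (log2 fold change 0.37, SE 0.0922, adjusted p = 0.00867). All 3 regulators were called higher at 24 h, and only PFKFB4 at 6 h.

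All 10 other HIF targets tested were called higher at 24 h than at 6 h in WT cells, beside 20.5% of all features. Their changes ran from 0.22 to 1.72 on the log2 scale. The calls of EGLN1, KDM3A, ADM, BNIP3L and P4HA2 were not kept with every library left out in turn, and ADM was not called in ΔCRE cells. At 6 h 3 of the 10 tested were called higher than at 0 h and 3 lower, near the 23.3% and 21.1% of all features, with a median log2 fold change of 0.03 that was -0.04 with quantile normalization and -0.09 after rescaling to the same sum. At 24 h 7 were called higher than at 0 h and 1 lower, beside 26.5% and 28.2% of all features, with a median of 0.57.

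NDRG1, a gene of differentiation and stress responses (chr8:134249414-134309547), was at 14.7 and 13.7 FPKM at 0 h, 27.4 and 26.0 FPKM at 6 h and 92.6 and 88.1 FPKM at 24 h. The 3 times did not overlap, and its log2 fold change was 0.87 (SE 0.0674, adjusted p = 2.35e-05) at 6 h and 2.59 (SE 0.0674, adjusted p = 5.22e-08) at 24 h, the largest of the 36 genes. BNIP3, which marks mitochondria for mitophagy (chr10:133781204-133795435), was at 39.8 and 40.8 FPKM at 0 h, 46.3 and 43.5 FPKM at 6 h and 111 and 103 FPKM at 24 h, with log2 fold changes of 0.15 (SE 0.0713, adjusted p = 0.114) and 1.39 (SE 0.0713, adjusted p = 1.9e-06). Its relative BNIP3L was not called at either time and lay between 13.3 and 17.9 FPKM. P4HA1 and P4HA2 are the catalytic subunits of collagen prolyl hydroxylase. P4HA1 was at 16.2 and 15.4 FPKM at 0 h, 14.4 and 14.9 FPKM at 6 h and 27.1 and 27.9 FPKM at 24 h (log2 fold change 0.77, SE 0.0534, adjusted p = 1.04e-05). P4HA2 rose already at 6 h, from 25.1 and 21.6 FPKM to 36.6 and 37.8 FPKM (log2 fold change 0.65, SE 0.0813, adjusted p = 0.000337), and was at 46.7 and 41.5 FPKM at 24 h (log2 fold change 0.89, SE 0.0813, adjusted p = 4.49e-05).

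ANKRD37 was at 1.82 and 1.51 FPKM at 0 h, 2.70 and 2.66 FPKM at 6 h and 4.59 and 5.71 FPKM at 24 h (log2 fold change 1.20, SE 0.139, adjusted p = 0.000164). KDM3A, a histone demethylase, went from 9.02 and 9.03 FPKM at 0 h to 11.8 and 12.04 FPKM at 24 h (log2 fold change 0.36, SE 0.0627, adjusted p = 0.00142). CA9, the cell-surface carbonic anhydrase widely used as a mark of tumour hypoxia, did not pass the filter and has no test. It was at 0.208 and 0.391 FPKM at 0 h, 0.320 and 0.236 FPKM at 6 h and 3.31 and 1.99 FPKM at 24 h in WT cells, and its libraries at 24 h lay above all those at 0 h and 6 h.

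EGLN3, EGLN1 and ADM had a fall at 6 h. EGLN3 (chr14:34393421-34420284) was at 4.06 and 3.64 FPKM at 0 h, 1.40 and 1.23 FPKM at 6 h and 5.08 and 5.52 FPKM at 24 h. It fell by 1.06 (SE 0.115, adjusted p = 0.00015) on the log2 scale at 6 h, and at 24 h it was above 0 h by 0.38 (SE 0.115, adjusted p = 0.0221). EGLN1, the main oxygen sensor of the family, was at 6.18 and 6.62 FPKM at 0 h, 4.36 and 4.63 FPKM at 6 h and 5.53 and 5.70 FPKM at 24 h, a fall by 0.43 (SE 0.0855, adjusted p = 0.00399) at 6 h and no call at 24 h (log2 fold change -0.16). ADM, which codes for the vasodilator peptide adrenomedullin, was at 17.7 and 20.7 FPKM at 0 h, 7.71 and 8.52 FPKM at 6 h and 11.1 and 9.52 FPKM at 24 h. Of the targets it alone was called lower at 24 h than at 0 h, by 0.83 (SE 0.0980, adjusted p = 0.000177).

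**Figure D3:**
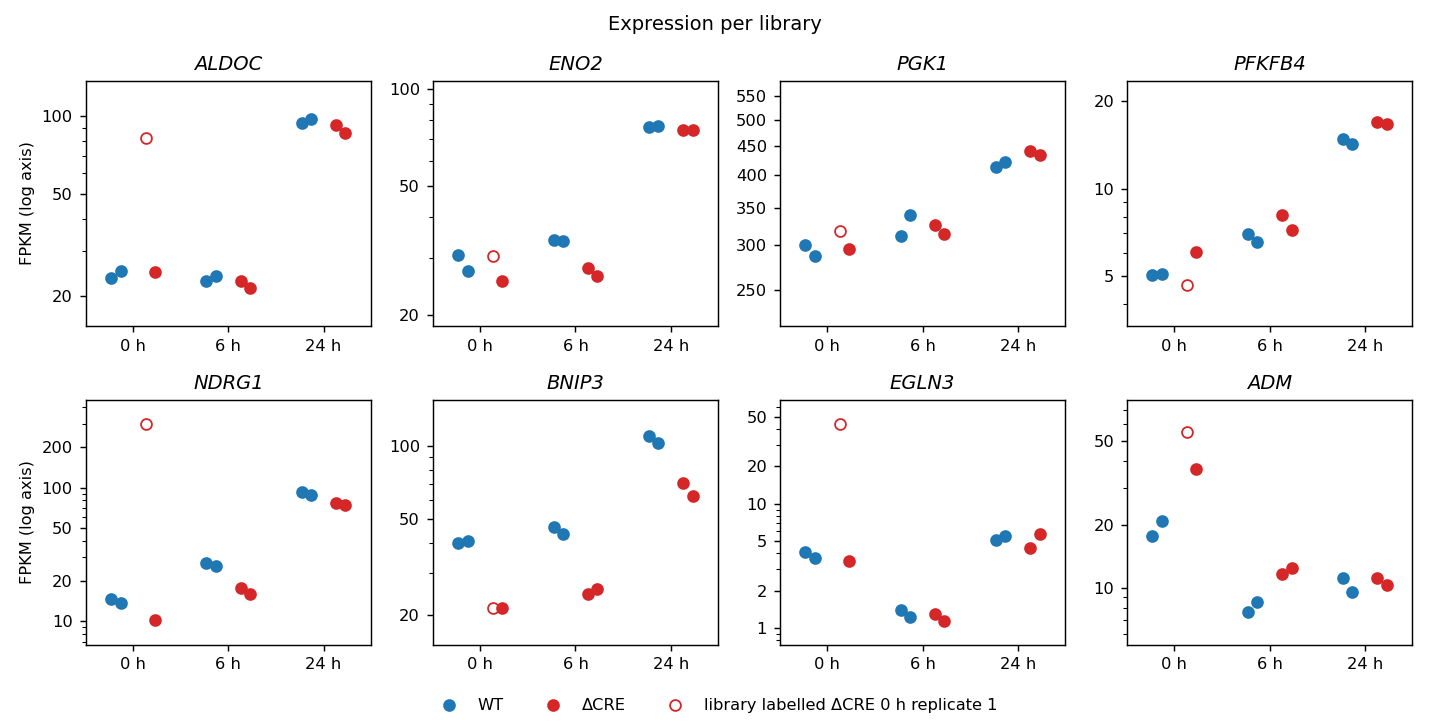
FPKM (vertical axis, log scale) of 8 genes at 0, 6 and 24 h (horizontal axis) in WT (blue) and ΔCRE (red) cells, 1 point per library. The hollow point is the library labelled ΔCRE 0 h replicate 1. ALDOC, ENO2, PGK1, PFKFB4, NDRG1 and BNIP3 are highest at 24 h among the filled points of each genotype, EGLN3 is lowest at 6 h, and ADM is highest at 0 h.

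Between 6 h and 24 h the other HIF targets had larger changes than most enzymes. In WT cells all 10 targets tested were called higher at 24 h than at 6 h and none lower, with a median log2 fold change of 0.53 that was 0.312 among targets with a mean of at least 5 FPKM. Of the 17 enzymes 5 were called higher and 2 lower, with a median of 0.04. Over all 36 genes 18 were called higher and 3 lower, beside 20.5% and 26.3% of all features, whose median was -0.04. In ΔCRE cells 9 of the 10 targets were called higher and none lower, with a median of 0.73, and of the enzymes 5 were called higher and 2 lower, with a median of -0.0043 that was 0.09 with quantile normalization and 0.10 after rescaling. Over all 36 genes 18 were called higher and 3 lower in ΔCRE cells, beside 22.1% and 27.5% of all features. Among the enzymes, ALDOC and ENO2 had changes as large as those of the targets, at 1.99 and 1.15 in WT cells and 1.96 and 1.43 in ΔCRE cells. The scaling moved the number of enzymes called more than the number of targets called, while rescaling raised the medians of both lists. With quantile normalization 10 enzymes were called higher and 1 lower in WT cells (median 0.17), and after rescaling to the same sum 10 and 0 (median 0.15), while the targets had 9 and 10 called higher (medians of 0.52 and 0.67) and 0 lower. In ΔCRE cells the enzymes then had 8 higher and 1 lower, and 8 and 2. The number of enzymes called thus depends on the scaling, and the median of the targets was above that of the enzymes under all 3 scalings. The medians were not compared by a test, since members of a list are not replicates.

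The share of higher among called features of the whole table rose from 43.7% to 64.3% in WT cells and from 44.6% to 60.7% in ΔCRE cells after rescaling to the same sum. With each library left out in turn, the median of the targets stayed between 0.51 and 0.58 in WT cells and between 0.66 and 0.80 in ΔCRE cells, and that of the enzymes between 0.003 and 0.06 and between -0.06 and 0.05. Of the 21 calls in each genotype, 11 in WT cells and 19 in ΔCRE cells were kept in every such fit. Among the targets the WT calls of EGLN1 (0.23 to 0.30) and KDM3A (0.19 to 0.24) were lost without any 1 of the 4 WT libraries at 6 h and 24 h, that of ADM (0.21 to 0.41) without either WT 6 h library or WT 24 h replicate 1 and that of BNIP3L (0.24 to 0.39) without WT 6 h replicate 2 or either WT 24 h library. P4HA2 (0.16 to 0.32) lost its call in 7 of the 11 fits and LDHB (-0.21 to -0.11) in 8, with adjusted p-values of up to 0.239 and 0.273. The others were HK1 (0.18 to 0.25, without any 1 of those 4 libraries), EPAS1 (-0.30 to -0.22) and PDK1 (0.35 to 0.45) without WT 6 h replicate 1 and PFKM (0.21 to 0.24) without WT 24 h replicate 2. In ΔCRE cells LDHA (0.19 to 0.23) lost its call without ΔCRE 24 h replicate 2 and PKM (-0.30 to -0.22) without that library or ΔCRE 6 h replicate 1.

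The genes called in both genotypes changed in the same direction from 6 h to 24 h, and the 2 comparisons share no library. In both, 16 genes were called higher and 2 lower, and none was called in opposite directions. Of all features, 20.5% were called higher and 26.3% lower in WT cells, and 22.1% and 27.5% in ΔCRE cells. How many features were called in the same direction in both was not counted, so these counts have no background. EGLN3 went from 1.29 and 1.15 FPKM at 6 h to 4.39 and 5.72 FPKM at 24 h in ΔCRE cells (log2 fold change 1.44, SE 0.115, adjusted p = 3.44e-05), beside 1.44 on the log2 scale in WT cells. NDRG1 went from 17.8 and 16.0 FPKM to 77.04 and 74.2 FPKM (log2 fold change 2.10, SE 0.0674, adjusted p = 3.16e-07), beside 1.72 in WT cells. ALDOC was at 22.9 and 21.5 FPKM at 6 h and 92.4 and 85.9 FPKM at 24 h, and ENO2 at 27.9 and 26.3 FPKM and 74.8 and 74.8 FPKM. The 2 genes called lower in both were EPAS1, by 0.26 (SE 0.0588, adjusted p = 0.00717) in WT and 0.28 (SE 0.0588, adjusted p = 0.00439) in ΔCRE cells, and HK2, by 0.28 (SE 0.0564, adjusted p = 0.00416) and 0.47 (SE 0.0564, adjusted p = 0.000249). After rescaling to the same sum both WT calls were lost, with -0.157 for EPAS1 (adjusted p = 0.0637) and -0.168 for HK2 (adjusted p = 0.0605). CA9 was at 0.0570 and 0.304 FPKM at 6 h and 2.05 and 1.88 FPKM at 24 h in ΔCRE cells, with no test. Across the 36 genes Pearson's r of the 2 sets of changes was 0.965, and 0.694 over all 11256 features, as a description across genes of the same libraries.

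The difference between the genotypes in this change was tested by an interaction term. None of the 36 genes was called by limma, beside 0.160% of all features. At an unadjusted p under 0.05 there were 8 genes, beside 786 features (6.98%), and the lowest adjusted p was 0.355 (NDRG1, a difference of 0.37 with an SE of 0.0953). ADM had a difference of -0.46 (SE 0.139), with a change of 0.31 in WT and of -0.15 in ΔCRE cells.

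**Figure D4:**
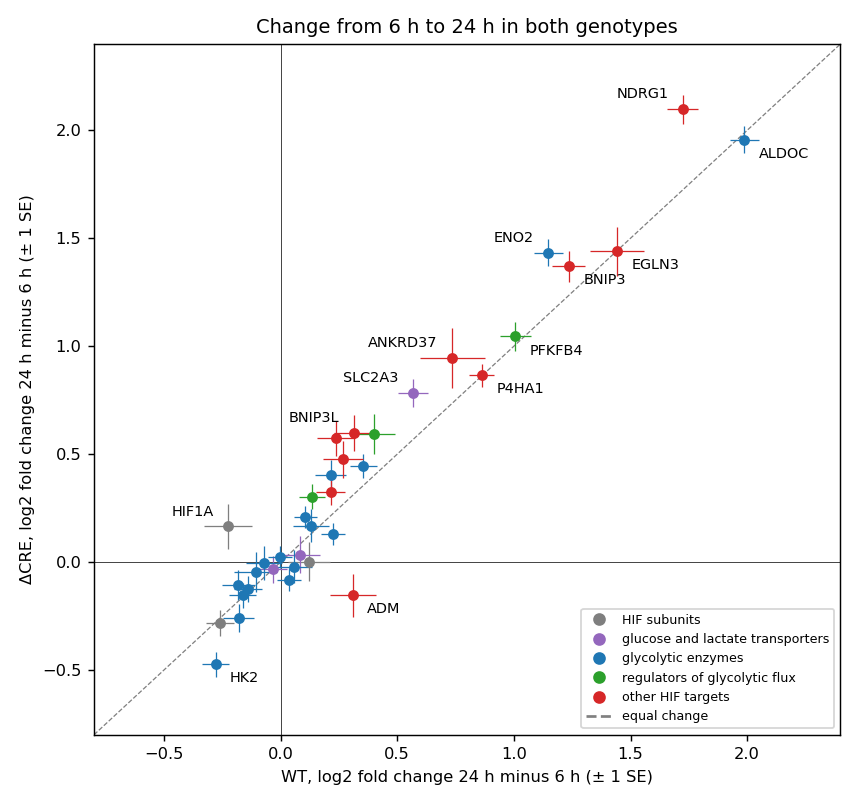
Log2 fold change from 6 h to 24 h in WT cells (horizontal axis) and ΔCRE cells (vertical axis) for the 36 genes tested, with bars of ± 1 SE and the line of equal change. ALDOC, NDRG1, EGLN3, ENO2, BNIP3 and PFKFB4 lie at the upper right in both genotypes, and ADM at 0.31 and -0.15 is on different sides of 0, with no call in ΔCRE cells.

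Between ΔCRE and WT cells at the same time, most of the genes were not called, though the share called was above that of all features. At 6 h 3 of the 36 were called higher in ΔCRE cells and 5 lower, beside 3.62% and 6.22% of all features. At 24 h 3 were called higher and 2 lower, beside 2.35% and 3.97% of all features, and after rescaling to the same sum the share of higher among called features at 24 h fell from 37.2% to 24.7%. At 0 h, with 1 ΔCRE library, 5 were called, beside 1.69% of all features. No call reached a 2-fold difference. With the library shown apart in the model, BNIP3 was the single gene called at 0 h and at 6 h, and the count at 24 h was 0. Fitted with the libraries of a time alone, 3 genes were called at 6 h (BNIP3, NDRG1 and PGAM1) and none at 24 h. The shares of all features called in these other fits are not set beside the counts.

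BNIP3 was the gene with the largest difference at 6 h and 24 h. It was at 46.3 and 43.5 FPKM in WT and 24.6 and 25.6 FPKM in ΔCRE cells at 6 h, and at 111 and 103 FPKM and 70.7 and 62.4 FPKM at 24 h. At 0 h it was at 39.8 and 40.8 FPKM in WT cells and 21.4 FPKM in the ΔCRE library tested. The groups did not overlap at any time, and ΔCRE cells were lower by 0.88 (SE 0.0874, adjusted p = 0.00179) on the log2 scale at 0 h, 0.81 (SE 0.0713, adjusted p = 0.000402) at 6 h and 0.68 (SE 0.0713, adjusted p = 0.00158) at 24 h. These 3 calls were kept with each library left out in turn. PGAM1 was at 449 and 455 FPKM in WT and 357 and 341 FPKM in ΔCRE cells at 6 h, lower by 0.37 (SE 0.0519, adjusted p = 0.00387), and lower by 0.35 (SE 0.0519, adjusted p = 0.00764) at 24 h. P4HA1 was higher in ΔCRE cells, with 19.1 and 19.9 FPKM at 6 h against 14.4 and 14.9 FPKM in WT cells (log2 fold change 0.39, SE 0.0534, adjusted p = 0.00375) and a difference of 0.39 (SE 0.0534, adjusted p = 0.0054) at 24 h. HK1 was called higher at 24 h, at 135 and 129 FPKM against 108 and 103 FPKM in WT cells (log2 fold change 0.32, SE 0.0660, adjusted p = 0.0289), and this call was lost in 6 of the 11 fits with a library left out (0.28 to 0.35). At 24 h the call of P4HA1 (0.37 to 0.41) was lost without WT 24 h replicate 1 and that of PGAM1 (-0.36 to -0.34) without either WT 24 h library or ΔCRE 24 h replicate 2.

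All 4 of these genes lie on chromosome 10, where 6 of the 38 are found, and genes around them differed in the same direction. Within 5 Mb on either side of P4HA1 (chr10:74766980-74856732) the median difference of 62 features was 0.36 at 6 h and 0.38 at 24 h, close to the gene's own values. Around HK1 (chr10:71029756-71161637) the median of 55 features was 0.37 at 24 h. Around PGAM1 (chr10:99186027-99193198) the median of 75 features was -0.24 at 6 h and -0.28 at 24 h. Around BNIP3 (chr10:133781204-133795435) the median of 17 features was -0.27 at 6 h and -0.26 at 24 h, so BNIP3 was lower than its neighbours by a further 0.54 and 0.42. All 8 calls on chromosome 10 had the sign of their neighbours' median. The part of the chromosomal region in the differences of the single genes was not tested.

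**Figure D5:**
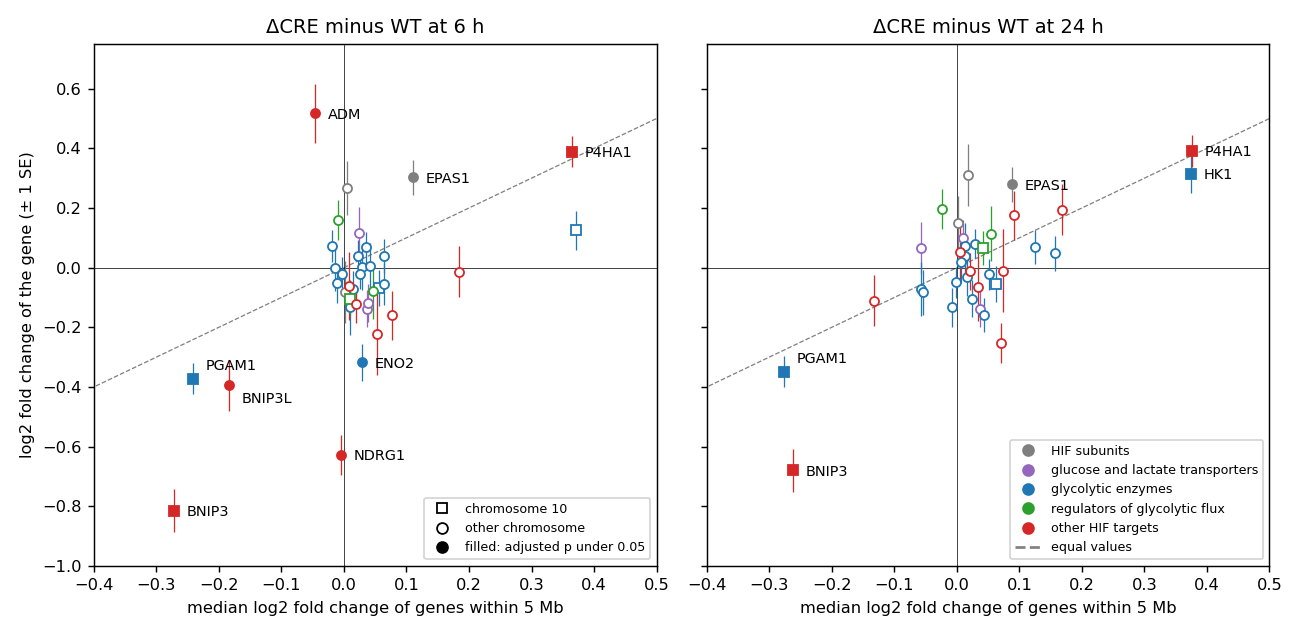
Log2 fold change of ΔCRE against WT cells at 6 h (left) and 24 h (right) for each gene tested (vertical axis, bars of ± 1 SE), against the median of the tested features within 5 Mb (horizontal axis). Filled points have an adjusted p under 0.05, squares are genes of chromosome 10, and the dashed line marks equal values. P4HA1, PGAM1 and, at 24 h, HK1 lie near that line, and BNIP3 lies below it.

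Away from chromosome 10, 6 genes were called at some time, and the medians of their neighbours were smaller in size than the genes' own differences. At 6 h the median was 0.11 around EPAS1 and -0.18 around BNIP3L, with the sign of the gene's own difference. It was -0.005 around NDRG1, -0.05 around ADM and 0.03 around ENO2. The part of these regions was not tested either. EPAS1 was higher in ΔCRE cells at all 3 times, at 26.8 FPKM at 0 h, 14.1 and 13.7 FPKM at 6 h and 11.7 and 10.8 FPKM at 24 h, with differences of 0.47 (SE 0.0721, adjusted p = 0.0179), 0.30 (SE 0.0588, adjusted p = 0.0156) and 0.28 (SE 0.0588, adjusted p = 0.029). The call at 0 h was lost without either WT 0 h library (0.46 to 0.47), that at 6 h without any 1 of the 4 libraries at 6 h (0.26 to 0.34) and that at 24 h without any 1 of the 4 libraries at 24 h or either WT 6 h library (0.23 to 0.33), with adjusted p-values of up to 0.0691, 0.111 and 0.150. NDRG1 was lower in ΔCRE cells at 6 h, at 17.8 and 16.0 FPKM against 27.4 and 26.0 FPKM in WT cells, by 0.63 (SE 0.0674, adjusted p = 0.0012). At 24 h NDRG1 was not called (log2 fold change -0.25, SE 0.0674, adjusted p = 0.0666), and at 0 h its difference of -0.43 became 1.93 when the library shown apart was included. ADM was higher in ΔCRE cells at 0 h, with 36.9 FPKM against 17.7 and 20.7 FPKM in WT cells (log2 fold change 0.91, SE 0.120, adjusted p = 0.00955), and at 6 h with 11.7 and 12.4 FPKM (log2 fold change 0.52, SE 0.0980, adjusted p = 0.0139). At 24 h both genotypes had similar values of ADM, at 11.1 and 10.3 FPKM in ΔCRE cells, and it was not called (log2 fold change 0.05).

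ENO2 and BNIP3L were called lower in ΔCRE cells at 6 h, by 0.32 (SE 0.0630, adjusted p = 0.0171) and 0.39 (SE 0.0849, adjusted p = 0.0232), and HK2 at 0 h, by 0.38 (SE 0.0691, adjusted p = 0.0384). The calls of ADM (0.45 to 0.58) and ENO2 (-0.36 to -0.28) at 6 h were lost without either WT 6 h library or ΔCRE 6 h replicate 2, and that of BNIP3L (-0.51 to -0.28) without either WT 6 h library or ΔCRE 6 h replicate 1, with adjusted p-values of up to 0.116, 0.108 and 0.168. Those of HK2 (-0.39 to -0.37) and NDRG1 (-0.48 to -0.38) at 0 h were lost without any 1 of the 8 libraries of WT cells or of ΔCRE cells at 24 h. ALDOC, at -0.07 and -0.10, and PFKFB4, at 0.16 and 0.20, were not called at 6 h or 24 h.

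Further genes of the same pathways were counted from lists. Of 37 further hypoxia targets tested, 11 were called higher at 6 h in WT cells and 9 lower, while 24 h had 22 higher and 7 lower than at 0 h, and a median of 0.29 on the log2 scale. After rescaling to the same sum the counts at 6 h were 10 and 12. The shares of all features stand at 23.3% higher and 21.1% lower at 6 h and 26.5% and 28.2% at 24 h, for this list and those that follow, and the counts of the further targets at 6 h lie near them. STC1, which codes for the hormone stanniocalcin, had the largest change, from 1.65 and 1.71 FPKM at 0 h through 13.1 and 13.2 FPKM at 6 h to 84.6 and 87.7 FPKM at 24 h (log2 fold change 5.02, SE 0.0512, adjusted p = 1.39e-10). ANKZF1 went from 10.99 and 8.93 FPKM to 40.7 and 37.6 FPKM at 24 h (log2 fold change 1.88, SE 0.0913, adjusted p = 1.4e-06). EDN1, which codes for the vasoconstrictor endothelin, fell from 7.38 and 7.99 FPKM to 1.59 and 1.42 FPKM, by 1.79 (SE 0.0890, adjusted p = 1.57e-06). MAFF and HMOX1 rose at 6 h, with log2 fold changes of 1.47 and 1.31, and both are also known as targets of other stress pathways.

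Of 16 other genes of the HIF system, 2 were called higher at 6 h and 3 lower, while 24 h had 3 higher and 4 lower, none above the shares of all features. VHL, the ubiquitin ligase subunit that removes HIF, was at 13.0 and 13.5 FPKM at 0 h and 20.8 and 19.6 FPKM at 6 h (log2 fold change 0.57, SE 0.0667, adjusted p = 0.000233). CITED2, which competes with HIF for its coactivator, went from 29.8 and 29.8 FPKM to 15.7 and 15.6 FPKM at 6 h, a fall by 0.89 (SE 0.141, adjusted p = 0.00126). The feature of EGLN2 was called higher at 6 h (log2 fold change 0.43), but it also names MIA and RAB4B, so the value is not of EGLN2 alone. USP20 was called higher at 24 h (log2 fold change 1.02) and the coactivator EP300 lower at 24 h (log2 fold change -0.48).

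Of 14 other glycolytic isoforms and side enzymes tested, 2 were called higher at 6 h and 3 lower, while 24 h had 4 higher and 5 lower. The share called lower at 24 h was above that of all features, and the other shares were near or below theirs. SLC2A6, another glucose transporter family gene, went from 4.59 and 4.75 FPKM at 0 h to 21.1 and 19.4 FPKM at 6 h and 11.5 and 10.5 FPKM at 24 h (log2 fold change 1.91, SE 0.0833, adjusted p = 7.91e-07 at 6 h). SLC2A12 and GALM were called lower at 6 h (-0.77 and -0.65), and at 24 h GPD2 was lower (log2 fold change -0.87) and ENO3 higher (log2 fold change 0.60). Of 8 enzymes of the pentose phosphate pathway, which branches off glycolysis, 1 was called higher at 6 h (RPIA, 0.26) and none lower, which after rescaling became 0 and 1, and at 24 h 3 were called higher (PGLS, H6PD and TALDO1, between 0.24 and 0.39) and 1 lower.

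The 14 genes of pyruvate entry into the mitochondria, its use there and the control of these steps had more calls lower than higher. The list holds subunits of pyruvate dehydrogenase as well as its inhibitors, so the counts give no direction for pyruvate oxidation. At 6 h 1 was called higher and 9 lower, with a median of -0.29, beside 21.1% lower over all features. At 24 h 2 were called higher and 8 lower, with a median of -0.17, beside 28.2% lower over all features. PDHX, the binding subunit of pyruvate dehydrogenase, went from 19.2 and 21.8 FPKM at 0 h to 14.8 and 14.7 FPKM at 6 h and 13.3 and 13.7 FPKM at 24 h (log2 fold change -0.57, SE 0.0747, adjusted p = 0.00032 at 24 h). PDK4 and PDK2, which inhibit the same enzyme, fell by 0.81 (SE 0.135, adjusted p = 0.00166) and 0.60 (SE 0.0784, adjusted p = 0.000437) at 6 h. PC, which turns pyruvate into oxaloacetate, was higher at 24 h (log2 fold change 0.78, SE 0.0924, adjusted p = 0.000182), and PDPR, a regulator of the pyruvate dehydrogenase phosphatase, was lower (log2 fold change -0.57).

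Among the 33 genes of the 38 that had both a promoter window and a test, ACGTG was in at least 1 window of 13 of the 19 called higher in WT cells at 24 h and of 5 of the other 14. Over all 27305 genes with a window the share was 24.9%. Genes with several starts have more chances to hold a match. Among genes with 1 window the ACGTG counts were 7 of 11 and 2 of 10, beside 21.3% over all such genes. Of the 7 genes that were at least 2-fold higher, PFKFB4 held no ACGTG and NDRG1 had no window. The split rested on this form of the core. GCGTG was in 11 of the 19 and 9 of the other 14 (40.6% of all genes), and either form in 17 of the 19 and 12 of the 14 (52.4% of all genes).

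In the library labelled ΔCRE 0 h replicate 1, several of the genes were far from their values in the other 11 libraries. HIF1A was at 3.20 FPKM, against 82.4 to 116.8 FPKM in the others. NDRG1 was at 297 FPKM, EGLN3 at 44.3 FPKM, CA9 at 165 FPKM and ADM at 54.9 FPKM, each above every other library. The summed FPKM of the 11 other HIF targets was 715.1 in that library, against 133 to 336 in the others. These values were not rescaled, and the sum of all FPKM was 1423335 there, against 566255 to 651080 in the others. Relative to these sums, NDRG1, EGLN3 and CA9 were still highest in that library, and ADM and the summed targets were not. The part of this difference in scale was not tested.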

How the data were processed

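RNA of MDA-MB-231 cells was sequenced as stranded mRNA libraries (TruSeq). The authors trimmed reads with cutadapt, aligned them to hg19 with TopHat and deposited FPKM per gene from Cufflinks for each library. The annotation and any scaling between libraries are not given in the sources used here, and FPKM hold no fragment counts, so the depth behind each value is unknown. Of 24331 features, 405 name more than 1 gene, none of them among the 38 genes. The authors' test needs reads, so log2(FPKM + 1) was fitted with limma 3.58.1 in R 4.3.3 (6 groups, 11 libraries, trended prior, residual df 5, 8.41 with the prior), on the 11256 features with a mean of at least 1 FPKM. The library labelled ΔCRE 0 h replicate 1 was left out because of its marker genes and its sum of FPKM. p-values were two-sided and adjusted by the Benjamini-Hochberg method over all features. Genes were named if they were among the 38, or, for each further list of pathway genes, if they were among the 3 with the largest called changes at 6 h or at 24 h in WT cells. The 38 genes and all lists were chosen with earlier results of these data known. The steps were tested on simulated data. Neighbours are tested features within 5 Mb on either side of a gene. The core (ACGTG, and GCGTG, which was added after the values were seen) was searched in RefSeq promoter windows of GRCh38.p14, and no coordinates were converted. The settings varied were the pseudocount (0.1), the filter (none, or a minimum mean of 5 FPKM), quantile normalization, rescaling of each library to the same sum (TPM), all 12 libraries, fits on the libraries compared alone, no trend, a block for the replicate number, a 2-fold minimum and leaving out each library.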

Additional observations from a re-analysis of the deposited data

Results flagged for a closer look

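Of the 38 genes, 5 were at least 2-fold higher in the library labelled ΔCRE 0 h replicate 1, outside all tests, than in the highest of the other 11. They were SLC16A1 at 3.206 FPKM, ALDOA at 2799 FPKM, EGLN3 at 44.32 FPKM, NDRG1 at 296.5 FPKM and CA9 at 165.5 FPKM. These values were not rescaled, and the sum of FPKM was 1423335 in that library against 566255 to 651080 in the others. The part of this difference in scale was not tested. In the same library LGALS4, KRT20, CDX2 and VIL1, which mark intestinal epithelium, were at 596, 127, 55.3 and 32.3 FPKM, and CDX2 and VIL1 were at 0 in the other 11. Their part in the values of the 5 genes was not tested. No group held enough libraries for a search for a single distant replicate.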

How the results depend on the processing

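Of 103 calls of the genes in the 7 comparisons, none was lost with a pseudocount of 0.1 or with the replicate block, 4 without the trend, 9 without a filter, 10 after rescaling to the same sum, 6 with quantile normalization (1 of which turned sign), 1 of 95 with a minimum mean of 5 FPKM, 23 of 98 when only the libraries compared were fitted and 75 with all 12 libraries (1 of which turned sign). LDHB at 24 h against 6 h in WT cells turned to 0.136 with quantile normalization (adjusted p = 0.0763), and NDRG1 in ΔCRE against WT cells at 0 h to 1.93 with all 12 libraries (adjusted p = 0.286). The cause was not tested.

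With a 2-fold minimum the genes called were 3 for 6 h against 0 h, 7 for 24 h against 0 h and 6 for 24 h against 6 h in WT cells, 6 for 24 h against 6 h in ΔCRE cells, and 0 between ΔCRE and WT cells at 0, 6 and 24 h. Of all 11256 features, the calls at least 2-fold higher and lower were 317 and 106, 374 and 181, 179 and 135, and 211 and 146 in this order. With all 12 libraries the genes called were 3, 11, 4 and 8 in the same order, and 1, 1 and 0 between the genotypes at 0, 6 and 24 h. The counts that follow and those with all 12 libraries have no share of all features beside them. When only the libraries compared were fitted, 3 were called between the genotypes at 6 h and 0 at 24 h. With each library left out in turn, the counts were 12 to 18, 19 to 27, 14 to 24 and 19 to 23 in the order above, 2 to 5, 4 to 8 and 1 to 5 between the genotypes, and 0 for the interaction.

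The median of the enzymes at 6 h against 0 h in WT cells was -0.010 with quantile normalization and 0.015 after rescaling, and relative to the median of all features it was 0.139 in the reported fit, 0.0386 and 0.132. At 24 h against 6 h it was 0.174 and 0.154 in WT cells and 0.090 and 0.096 in ΔCRE cells under these 2 settings. That of the other HIF targets at 6 h against 0 h was -0.043 and -0.092. At 24 h against 0 h it was 0.625 with a pseudocount of 0.1 and 0.765 without a filter. At 24 h against 6 h in WT cells it was 0.621 with a pseudocount of 0.1, 0.736 without a filter, 0.312 with a minimum mean of 5 FPKM and 0.670 after rescaling, and in ΔCRE cells 0.865 without a filter, 0.585 with the minimum of 5 FPKM and 0.843 after rescaling. With each library left out, the median of the enzymes lay between 0.058 and 0.188 at 6 h and 0.131 and 0.224 at 24 h against 0 h, 0.003 and 0.058 at 24 h against 6 h, and -0.055 and 0.054 in ΔCRE cells. That of the other HIF targets lay between 0.016 and 0.038, 0.548 and 0.621, 0.508 and 0.580, and 0.662 and 0.800. Between the genotypes the medians lay between -0.049 and 0.005 at 6 h and -0.033 and -0.010 at 24 h for the enzymes, and between -0.167 and -0.126 and between -0.058 and 0.018 for the targets.

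The labels number the replicates in every group, and the correlation of deviations between libraries with the same number lay between -0.068 and 0.202. Whether libraries with the same number were prepared together is not given in the sources used here, and this correlation cannot decide it. With the replicate block the counts were 20, 26, 26 and 25, then 8, 8 and 6 between the genotypes, and 0 for the interaction, with no share of all features beside them. Because FPKM give no depth, differences in low genes such as CA9, SLC16A1 and ANKRD37 have no counting error here.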
